A study of Mus musculus with 36 samples.

Results

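The nuclear respiratory chain genes encode the subunits of the mitochondrial electron transport complexes and of ATP synthase that are made from the cell nucleus, together with assembly factors named after complexes I and III. They were chosen by name only, from the 48709 genes of the deposited table: 102 names begin with Ndufa, Ndufb, Ndufc, Ndufs, Ndufv, Uqcr, Uqcc, Cox4 to Cox8 or Atp5, or are Sdha, Sdhb, Sdhc or Sdhd, and 7 of these were left out because the name contains -ps, the mark of a pseudogene. How reads shared with such copies were assigned is not given in the sources used here, so the level of a gene with near-identical copies is uncertain to that extent. Of the 95 genes that remained, 38 are subunits of complex I, 4 of complex II, 8 of complex III, 18 of complex IV and 15 of complex V. Another 7 are complex I assembly factors (Ndufaf) and 3 are complex III assembly factors (Uqcc). Atp5s and Atp5sl carry the Atp5 name without being subunits and were kept apart. Ndufa4 was counted with complex I by its name although its protein is now usually placed in complex IV. Its paralog Ndufa4l2 was counted with complex I by name in the same way. These genes do not hold every nuclear subunit: Ndufb1 of complex I, Cyc1, cytochrome c1 of complex III, and some small subunits of complex V are outside the 95 genes.

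The cells came from the stria vascularis, the vascularised epithelium of the outer cochlear wall, which pumps potassium into the endolymph and keeps up the endocochlear potential. Mice of the strain given as CBA in the labels and CBA/J by the study, without any added allele or agent, were used at 1 month, 9 months and 26 months of age. Each age had 3 libraries, called A, B and C, and a library was a pool of about 1000 cells, taken from 4 cochleae (2 mice, males or females) according to the labels. Marginal, intermediate and basal cells were pooled without sorting after a short enzyme digestion, with trypsin in the labels and collagenase in the study's methods. In these bulk samples fewer cells of a type and less RNA per cell cannot be told apart.

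In the respiratory chain, complexes I and II pass electrons from NADH and succinate to ubiquinone, complex III passes them on to cytochrome c and complex IV to oxygen. Complexes I, III and IV pump protons while doing so, and complex V, the ATP synthase, makes ATP as the protons flow back. Complex II is also an enzyme of the TCA cycle and is made from nuclear genes only, whereas the other complexes join nuclear subunits to a few that are encoded in mitochondrial DNA. The marginal cells of the stria are known for their wealth of mitochondria, which supply the ATP of the sodium pump.

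Levels are given in RPKM, a read count scaled to transcript length and to the mapped reads of the library, as the authors deposited it, and differences between ages as log2 fold changes of RPKM + 0.1, older over younger. A gene was called higher or lower when limma's moderated test gave an adjusted p of 0.10 or less over the 15806 genes that reached 0.1 RPKM in 3 or more libraries. A second rule also asked for a log2 fold change of at least 1 in size. The defining markers of the stria were present at every age, with summed levels of 1240 to 1350, 1350 to 1410 and 1230 to 1240 RPKM for 6 marginal cell genes at 1, 9 and 26 months. The sum was 3870 to 4140 RPKM over all libraries for 7 intermediate cell genes, of which Tyrp1 stayed under 1 RPKM. The 4 basal cell genes summed to 335 to 347, 781 to 817 and 363 to 368 RPKM at 1, 9 and 26 months, with all 4 called higher for 9 against 1 month (median log2 fold change 0.94) and all 4 lower for 26 against 9 months (median -1.13). Markers of other cells moved with age as well. At 1, 9 and 26 months 6 spiral ligament fibrocyte genes summed to 120, 550 to 584 and 253 to 255 RPKM. In the same order, 6 macrophage genes summed to 123 to 127, 296 to 307 and 1020 to 1040 RPKM, and 5 red cell genes summed to 3060 to 3180, 366 to 457 and 670 to 714 RPKM. The part of these markers in the differences below was not tested. Over the 100 most abundant genes, the 3 libraries of 26 months differed from each other by only 1.03 to 1.75%, libraries B and C of 1 month by 1.83% and libraries A and C of 9 months by 1.71%, while the remaining pairs within an age differed by 6.40 to 10.6%. The labels speak of 3 independent samples per age and the study's methods of 2 biological replicates with 2 technical repeats, so p-values measure only the spread between these libraries, which may be technical in part.

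The nuclear respiratory chain genes were among the most abundant transcripts of the stria: of all 48709 genes ranked by mean RPKM over the 9 libraries, 12 of them stood among the first 100, 59 among the first 500 and 72 among the first 1000. The median of these means was 124 RPKM for complex I, 161 RPKM for complex II, 185 RPKM for complex III, 136 RPKM for complex IV and 191 RPKM for complex V. The 10 assembly factors, which act during construction of a complex and are not kept in it, had a median of 13.2 RPKM, and only Uqcc2 among them passed 50 RPKM, at 102 RPKM. The highest means belonged to small subunits: Cox8a of complex IV at 1150 RPKM, Uqcr11 of complex III at 725 RPKM and Ndufa1 of complex I at 711 RPKM, beside the catalytic beta subunit Atp5b of complex V at 594 RPKM and the flavoprotein Sdha of complex II at 282 RPKM.

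Complex IV, which holds isoforms used in particular tissues, had the widest spread of levels. Of its 18 genes, 12 reached 50 RPKM and 5 stayed under 10 RPKM, 3 of them under 1 RPKM. Cox8c, known from testis, was at 0 in all 9 libraries, and Cox7b2 was at 0.025 RPKM in 1-month library C and at 0 in the other libraries. These 2 genes did not pass the filter on low values, so 93 of the 95 genes were tested. In complexes II, III and V every gene was above 50 RPKM, the lowest being Sdhc at 53.8 RPKM, Uqcrc2 at 70.3 RPKM and Atp5g2 at 53.4 RPKM.

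**Figure D1:**
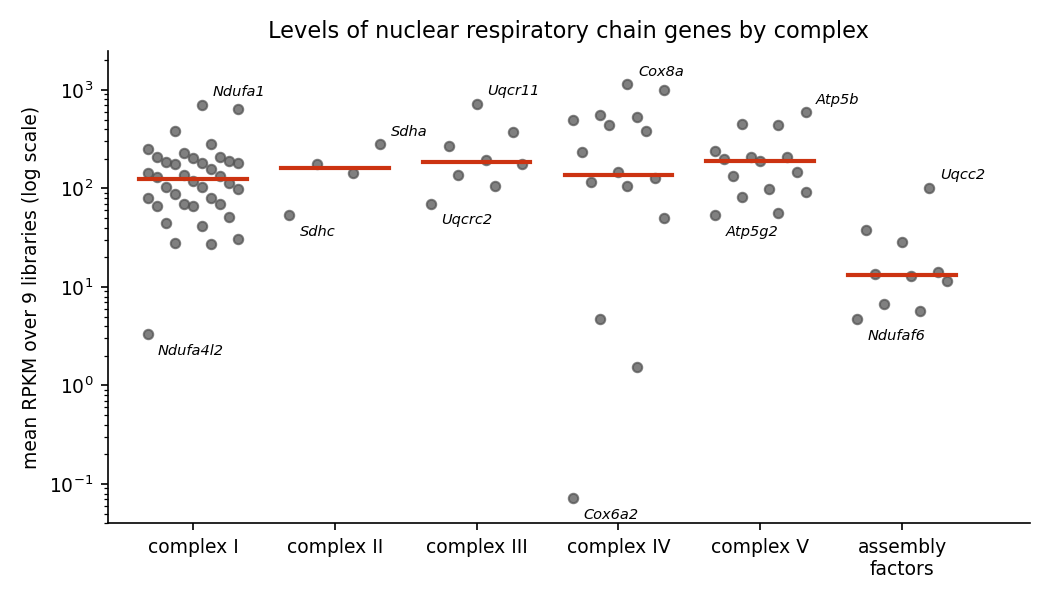
Mean RPKM over the 9 libraries (log axis) of the nuclear genes of complexes I to V and of the 10 assembly factors, 1 point per gene, with the median of each group as a red bar and its highest and lowest tested gene named; Cox8c and Cox7b2, at or near 0, are not drawn but count in the median, and Atp5s and Atp5sl are left out. The medians of the 5 complexes lie between 124 and 191 RPKM and that of the assembly factors at 13.2 RPKM.

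At 9 months, against 1 month, nearly the whole respiratory chain was lower. Of the 93 genes tested, 85 were called lower and 2 higher. These are 91.4% and 2.15%, where 17.4% of all genes tested were called lower and 54.7% higher. The median log2 fold change was -0.47, a fall of 28.0%, and that of all genes tested was 0.27. The respiratory chain genes stood at -0.74 relative to all genes on the log2 scale. No member passed the second rule in either direction, where 1.47% of all genes tested were lower and 10.1% higher. All values at 9 months lay below all values at 1 month for 82 genes and above them for 2, where 15.0% of all genes tested lay below and 50.4% above in this way.

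At 26 months, against 9 months, the genes split. Of the 93 tested, 18 were called higher (19.4%) and 31 lower (33.3%), where 29.0% of all genes tested were called higher and 33.7% lower, so neither share was above that of all genes. The median log2 fold change was -0.08, beside -0.03 for all genes, and single genes ranged from -0.56 to 0.56. All values at 26 months lay above all values at 9 months for 20 genes and below them for 34, where 29.1% of all genes tested lay above and 32.6% below. No member passed the second rule, where 3.28% of all genes were higher and 4.05% lower. With libraries of an age that differ by under 2% averaged into 1 sample, 1 gene was called higher (Ndufaf6) and 3 lower (Cox7b, Ndufa4 and Ndufaf2). Averaging left 26 months with 1 sample and no spread of its own, so calls in that setting rest on the spread at 1 and 9 months. Without 9-month library B, 31 genes were called higher and 32 lower.

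At 26 months, against 1 month, 82 genes were called lower and 4 higher (88.2% and 4.30%), where 21.2% of all genes tested were called lower and 52.7% higher. The median log2 fold change was -0.52, against 0.24 for all genes. By the second rule 4 genes were lower (Cox7a1, Atp5g3, Cox8b and Atp5k) and none was higher. Over all genes, 2.51% were lower and 9.93% higher. The comparisons of 9 and 26 months against 1 month share the 1-month libraries, and 80 genes were called lower in both. Those of 9 against 1 month and of 26 against 9 months share the 9-month libraries, whose level enters them in opposite directions. All values at 26 months lay below all values at 1 month for 82 genes and above them for 4, where 21.7% of all genes tested lay below and 53.0% above. The mean was highest at 1 month for 83 of the 93 genes, and lowest at 26 months for 54 and at 9 months for 34.

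The summed level of the 93 genes was 22516, 22082 and 22365 RPKM in libraries A, B and C at 1 month, 14775, 17153 and 14821 RPKM at 9 months, and 14780, 14931 and 14420 RPKM at 26 months. Of the summed RPKM of all genes tested this was 6.15 ± 0.033%, 4.59 ± 0.417% and 4.22 ± 0.072% at 1, 9 and 26 months (SD, n = 3 libraries each). Every library of 9 and 26 months lay below every library of 1 month, and library B of 9 months stood above the other libraries of its age. In that library 73 of the 93 genes were above the mean log2 level of A and C. The median log2 difference from that mean was 0.19, while the median over all genes was -0.02.

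**Figure D2:**
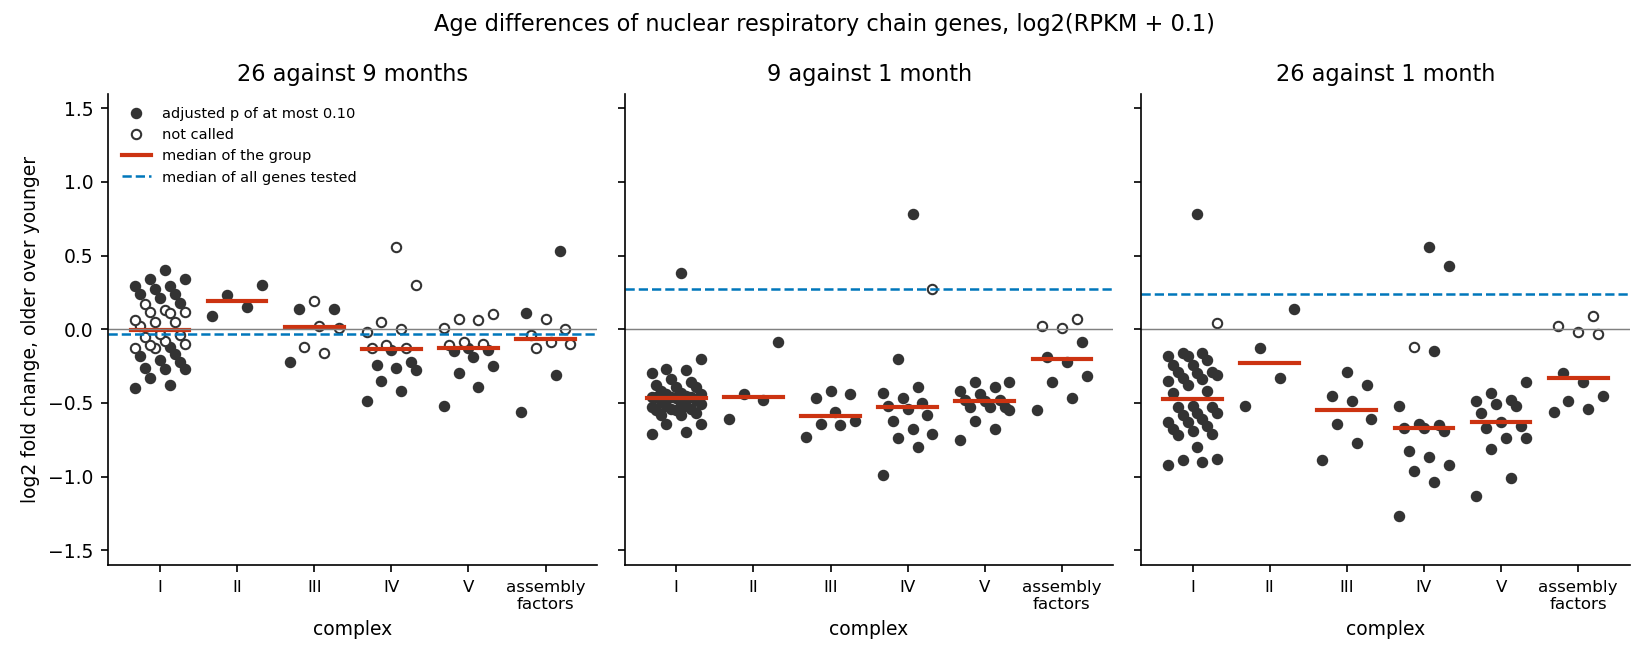
Log2 fold change of RPKM + 0.1 (vertical axis, older over younger) of each tested gene by complex, in a panel for each of the 3 pairs of ages; filled points were called at an adjusted p of at most 0.10, open points were not, red bars are medians of the group and the dashed line is the median of all 15806 genes tested. The group medians lie between -0.59 and -0.21 for 9 against 1 month, where the dashed line is at 0.27, and between -0.13 and 0.19 for 26 against 9 months.

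Complex I takes electrons from NADH. Of the 38 nuclear genes counted with it by name, 37 were called lower at 9 months, against 1 month. Over all genes tested 17.4% were lower and 54.7% higher. Only Ndufa4l2, the paralog of Ndufa4, was higher. The median log2 fold change was -0.47. Between 26 and 9 months 10 genes were called higher (26.3%) and 11 lower (28.9%), where 29.0% of all genes tested were higher and 33.7% lower. Neither share was above that of all genes. The median was -0.00, with a range of -0.40 to 0.40. For 26 against 1 month 36 were lower, Ndufa4l2 was higher, Ndufs1 was not called, and the median was -0.47. Over all genes tested 21.2% were lower and 52.7% higher for this comparison.

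The fall at 9 months, against 1 month, was seen in every structural module of complex I, as far as its genes are among the 95. In the NADH-oxidising N module 11 of 11 were called lower, and in the ubiquinone-binding Q module 5 of 5. In the ND1, ND2, ND4 and ND5 modules of the membrane arm 4, 5, 5 and 5 of as many were. Ndufb1, also listed for the ND4 module, is outside the 95 genes. The medians of the modules were -0.46, -0.39, -0.56, -0.51, -0.51 and -0.57 in that order. Over all genes tested 17.4% were lower for this comparison. At 26 months, against 9 months, the modules were mixed. In the N module 3 subunits were higher and 4 lower, in the Q module 1 and 1, in ND1 1 and 2, in ND4 1 and 1, in ND2 0 and 2, and in ND5 2 and 0. Over all genes tested 29.0% were higher and 33.7% lower between these ages. Differences between modules were not tested.

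Ndufa1, a small subunit of the membrane arm and the most abundant gene of the complex, had 1014, 973 and 1000.0 RPKM at 1 month, 603, 633 and 599 RPKM at 9 months and 522, 525 and 528 RPKM at 26 months. The 3 ages did not overlap and each was below the one before. This gave -0.70 ± 0.04 (SE, limma adjusted p = 4.55e-07) for 9 against 1 month and -0.22 ± 0.04 (SE, limma adjusted p = 0.00114) for 26 against 9 months. Ndufb9, the next in abundance and a membrane arm subunit, had 539, 608 and 534 RPKM at 9 months and 840.5, 840.3 and 833 RPKM at 1 month. The difference was -0.58 ± 0.052 (SE, limma adjusted p = 8.41e-06). At 26 months it had 525, 525 and 519 RPKM, all below 9 months, but the difference of -0.10 was not called (limma adjusted p = 0.142). Ndufs6, a zinc-binding subunit of the N module, had 502, 517 and 517 RPKM at 1 month, 332, 399.7 and 331 RPKM at 9 months and 294, 302 and 288 RPKM at 26 months. Its levels at 26 months were all below those at 9 months, with a log2 fold change of -0.26 ± 0.069 (SE, limma adjusted p = 0.00982).

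Several subunits fell by 9 months and stood higher again at 26 months. Ndufa9, which binds NADPH at the junction of the arms, had 106, 98.6 and 100.0 RPKM at 1 month, 61.1, 64.9 and 59.9 RPKM at 9 months and 75.5, 78.9 and 73.3 RPKM at 26 months. No ages overlapped, the 9-month libraries being lowest. The log2 fold change was -0.71 ± 0.048 (SE, limma adjusted p = 1.27e-06) for 9 against 1 month and 0.29 ± 0.048 (SE, limma adjusted p = 0.000624) for 26 against 9 months. Ndufa8, a membrane arm subunit imported as a cysteine-rich protein, had 239, 261 and 256 RPKM at 1 month, 156, 179.5 and 149.6 RPKM at 9 months and 203, 202 and 208 RPKM at 26 months. The log2 fold change was -0.64 ± 0.066 (SE, limma adjusted p = 2.19e-05) for 9 against 1 month and 0.34 ± 0.066 (SE, limma adjusted p = 0.00183) for 26 against 9 months, without overlap. Ndufb8 had 166, 171 and 170.1 RPKM at 1 month, 108, 125 and 107 RPKM at 9 months and 144, 146 and 139.9 RPKM at 26 months. Its 9-month libraries were again lowest, with log2 fold changes of -0.58 (limma adjusted p = 1.69e-05) and 0.34 (limma adjusted p = 0.000741) for the same comparisons. Ndufb10 had 189, 193 and 181 RPKM at 26 months, against 143, 174 and 144 RPKM at 9 months, and a log2 fold change of 0.29 ± 0.071 (SE, limma adjusted p = 0.00612). Both belong to the distal membrane arm. With near-identical libraries averaged, none of these 4 subunits was called for 26 against 9 months.

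Ndufa3 and Ndufa4 kept falling. Ndufa3, a membrane arm subunit, had 174, 180.2 and 185 RPKM at 1 month, 120.1, 148 and 119 RPKM at 9 months and 96.2, 102 and 92.9 RPKM at 26 months, and the ages did not overlap. Its log2 fold change for 26 against 9 months was -0.40 ± 0.08 (SE, limma adjusted p = 0.00215). Ndufa4 had 348, 322 and 334 RPKM at 1 month, 231, 236 and 233 RPKM at 9 months and 178, 181 and 179 RPKM at 26 months, and libraries of an age lay close together. Its log2 fold change for 26 against 9 months was -0.38 ± 0.038 (SE, limma adjusted p = 3.22e-05). This call was kept in every alternative that was run. For 26 against 1 month it was -0.90 (limma adjusted p = 8.6e-08), the smallest p among these genes in any comparison. At the low end of the complex, Ndufb2, a small membrane arm subunit, had 33.1, 32.9 and 33.0 RPKM at 1 month, 23.3, 28.3 and 24.4 RPKM at 9 months and 23.4, 23.2 and 22.5 RPKM at 26 months. Ndufab1, the mitochondrial acyl carrier protein, had 36.0, 32.1 and 33.2 RPKM at 1 month, 24.6, 23.5 and 25.6 RPKM at 9 months and 24.6, 25.4 and 24.9 RPKM at 26 months. Both were called lower for 9 against 1 month, with log2 fold changes of -0.39 (limma adjusted p = 0.000516) and -0.46 (limma adjusted p = 3.93e-05), and the libraries of 26 and 9 months overlapped for both.

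Complex II, succinate dehydrogenase, is the entry point of electrons from succinate. All 4 of its genes were called lower at 9 months, against 1 month, where 17.4% of all genes tested were. All 4 were called higher at 26 months, against 9 months, where 29.0% of all genes were. All 4 had their lowest mean at 9 months. Both comparisons use the 9-month libraries, so a low level in them enters both calls. The median log2 fold change was 0.19 for 26 against 9 months, beside -0.00, 0.01, -0.13 and -0.13 for complexes I, III, IV and V, but differences between complexes were not tested. Sdha, the catalytic flavoprotein, had 269.9, 286 and 280.4 RPKM at 1 month, 269, 258 and 258 RPKM at 9 months and 306, 304 and 310.3 RPKM at 26 months. Its 26-month libraries were above all others, and the 9-month libraries were all below those of 1 month by a small margin. The log2 fold change was 0.23 ± 0.038 (SE, limma adjusted p = 0.000678) for 26 against 9 months, -0.09 (limma adjusted p = 0.0585) for 9 against 1 month and 0.14 (limma adjusted p = 0.00867) for 26 against 1 month. The last 2 values changed sign under other scalings. That for 9 against 1 month did so under quantile normalization, and that for 26 against 1 month under median of ratios scaling and with the length trend removed. The call for 9 against 1 month was also lost without library B or C of 1 month or library C of 9 months.

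Sdhb, the iron-sulfur subunit, had 161, 167 and 163 RPKM at 1 month, 117, 132 and 114 RPKM at 9 months and 148, 152 and 148 RPKM at 26 months. The 9-month libraries were lowest and the 26-month libraries lay between, without overlap. Its log2 fold change was 0.30 ± 0.054 (SE, limma adjusted p = 0.00111) for 26 against 9 months and -0.44 (limma adjusted p = 7.68e-05) for 9 against 1 month. Sdhc and Sdhd anchor the enzyme in the membrane. Sdhc had 62.6, 65.7 and 64.6 RPKM at 1 month, 45.0, 48.3 and 44.9 RPKM at 9 months and 51.3, 51.2 and 50.5 RPKM at 26 months. This gave 0.15 (limma adjusted p = 0.0111) for 26 against 9 months and -0.48 (limma adjusted p = 5.28e-06) for 9 against 1 month. Sdhd had 221, 226 and 228 RPKM at 1 month, 148, 144 and 151 RPKM at 9 months and 159, 154 and 159 RPKM at 26 months. This gave 0.09 (limma adjusted p = 0.0478) and -0.61 (limma adjusted p = 5.83e-07). Both anchors had their ages apart, with 9 months lowest and 1 month highest, and the Sdhd call for 26 against 9 months was lost without library A or C of 26 months. With near-identical libraries averaged, none of the 4 was called for 26 against 9 months, and Sdhb, Sdhc and Sdhd were still called lower for 9 against 1 month.

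Complex III, the cytochrome bc1 complex, had all 8 genes chosen by name called lower at 9 months and at 26 months, each against 1 month. Over all genes tested 17.4% and 21.2% were lower. The median log2 fold changes of the 8 genes were -0.59 and -0.55. Cyc1, for cytochrome c1, is outside these 8 and was counted with the electron carriers. It had -0.44 (limma adjusted p = 9.53e-05) and -0.41 (limma adjusted p = 0.00015) for the same comparisons. Between 26 and 9 months 2 of the 8 genes were higher (25.0%) and 1 lower (12.5%), beside 29.0% and 33.7% of all genes tested. Uqcrb, a small subunit near the ubiquinone site, had the largest log2 fold change of the 8 genes for 9 against 1 month, with 446, 338 and 359 RPKM at 1 month, 226, 227 and 231 RPKM at 9 months and 203, 209 and 202 RPKM at 26 months. Library A of 1 month was far above the other libraries of its age, and no library of 9 or 26 months reached any of 1 month. The log2 fold change was -0.73 ± 0.086 (SE, limma adjusted p = 5.51e-05) for 9 against 1 month. Uqcrfs1, the Rieske iron-sulfur protein, had 229, 219 and 224 RPKM at 1 month, 148, 138 and 147 RPKM at 9 months and 160.1, 161 and 157 RPKM at 26 months. It fell by 9 months, with -0.64 ± 0.04 (SE, limma adjusted p = 8.43e-07). At 26 months it was higher than at 9 months, with 0.14 ± 0.04 (SE, limma adjusted p = 0.0122), and the ages did not overlap.

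Uqcrc1, a core protein, had 131, 129 and 130.3 RPKM at 26 months and 117, 126 and 112 RPKM at 9 months, with a log2 fold change of 0.14 ± 0.06 (SE, limma adjusted p = 0.0686). This call was lost in 10 of 26 alternatives, among them leaving out any library of 26 months or library A or C of 9 months. Its partner Uqcrc2 had 62.9, 63.3 and 62.5 RPKM at 26 months and 60.7, 62.0 and 63.0 RPKM at 9 months, which overlapped (limma adjusted p = 0.646). Uqcrh, the hinge protein that helps cytochrome c1 meet cytochrome c, went the other way, with 157, 157 and 154 RPKM at 26 months, against 170.4, 205 and 169.9 RPKM at 9 months. This was a log2 fold change of -0.22 ± 0.067 (SE, limma adjusted p = 0.0208). The small subunits Uqcr10, Uqcr11 and Uqcrq were not called between 26 and 9 months, with values of 0.01, 0.19 and -0.12. For 9 against 1 month they were called lower, with log2 fold changes of -0.62, -0.56 and -0.65 (limma adjusted p = 0.000131, 0.000828 and 0.000132). Uqcr11, the most abundant, had 808, 925 and 929 RPKM at 1 month, 543, 714 and 557 RPKM at 9 months and 695, 692 and 660.2 RPKM at 26 months.

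Complex IV is cytochrome c oxidase. In complexes IV and V 31 subunits were tested for 26 against 9 months, and 16 were called lower and none higher. Over all genes tested 33.7% were lower and 29.0% higher. Taking these complexes together was not planned. With near-identical libraries averaged, only Cox7b of the 16 was still called. Over the alternatives run the count called higher reached 3 in complex IV and 5 in complex V, and the count called lower went down to 1 and 0. Without library B of 9 months 1 gene of complex IV and 3 of complex V were called higher, and without library C of 26 months 4 of complex IV were lower. In complex IV 8 of 16 were lower, Cox5b, Cox6b2, Cox7a1, Cox7a2, Cox7b, Cox7c, Cox8a and Cox8b, with a median log2 fold change of -0.13. For 9 against 1 month 14 were lower and Cox6b2 higher, with a median of -0.53. At 26 months, against 1 month, 13 were lower and 2 higher, with a median of -0.67. Over all genes tested 17.4% and 21.2% were lower, and 54.7% and 52.7% higher, for these comparisons in that order. Cox7b, a small structural subunit, had 189, 159.6 and 166 RPKM at 1 month, 119, 128 and 122 RPKM at 9 months and 85.9, 90.4 and 86.9 RPKM at 26 months. The ages did not overlap, and the step to 26 months was about as large as the step to 9 months. The values were -0.49 ± 0.062 (SE, limma adjusted p = 0.000134) for 26 against 9 months and -0.47 ± 0.062 (SE, limma adjusted p = 0.00011) for 9 against 1 month. The call between 26 and 9 months was kept in every alternative run.

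Cox5a, which binds a thyroid hormone metabolite and contacts cytochrome c, had 578, 515 and 537 RPKM at 1 month, 292, 339 and 303 RPKM at 9 months and 306, 309.6 and 302 RPKM at 26 months. It fell by 9 months, with -0.80 ± 0.063 (SE, limma adjusted p = 3.36e-06), and the 26- and 9-month libraries overlapped. Cox6c, a single-span subunit, also fell, with 172, 129 and 139.8 RPKM at 1 month, 78.9, 99.3 and 85.1 RPKM at 9 months and 79.0, 83.5 and 77.1 RPKM at 26 months. It had a log2 fold change of -0.74 ± 0.11 (SE, limma adjusted p = 0.00025) for 9 against 1 month. In that gene library A of 1 month stood above B and C, and B of 9 months above A and C. Cox7c had 85.0, 90.9 and 82.6 RPKM at 26 months, against 188, 148 and 157 RPKM at 1 month. The difference was -0.92 ± 0.095 (SE, limma adjusted p = 1.94e-05), without overlap. Its 26- and 9-month libraries overlapped although the gene was called lower between them, at -0.22 (limma adjusted p = 0.0779).

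Paralogs in complex IV differ in where they are used, and 2 muscle-type isoforms were abundant in the stria. Cox7a1, the form best known from heart and skeletal muscle, had 371, 357 and 363 RPKM at 1 month, 166, 217 and 171 RPKM at 9 months and 154, 158 and 140.3 RPKM at 26 months. Its libraries at 9 and 26 months were all below those at 1 month and the later ages did not overlap either. The log2 fold change was -0.99 ± 0.093 (SE, limma adjusted p = 1.15e-05) for 9 against 1 month and -1.27 ± 0.093 (SE, limma adjusted p = 2.05e-06) for 26 against 1 month. It was -0.28 (limma adjusted p = 0.0266) for 26 against 9 months, which was not called without 26-month library C. Cox7a2, the form used in most tissues, had 579, 521 and 549.5 RPKM at 1 month, 399, 467 and 393 RPKM at 9 months and 352, 357 and 339 RPKM at 26 months. Its values were -0.39 (limma adjusted p = 0.000749) for 9 against 1 month and -0.26 (limma adjusted p = 0.0101) for 26 against 9 months. The Cox7a1 share of their summed RPKM was 39.8 ± 0.82% at 1 month, 30.5 ± 1.2% at 9 months and 30.1 ± 0.74% at 26 months (mean ± SD of 3 libraries). In single libraries it was 39.0 to 40.7% at 1 month and 29.3 to 31.7% at the later ages, so 1 month stood apart and the later ages overlapped.

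Cox8b, a muscle-type isoform in rodents, had 758, 720.4 and 733 RPKM at 1 month, 433, 585 and 438 RPKM at 9 months and 364, 373 and 339 RPKM at 26 months. Library B of 9 months was far above A and C, and still the ages did not overlap. Its log2 fold change was -1.04 ± 0.1 (SE, limma adjusted p = 1.53e-05) for 26 against 1 month, -0.62 (limma adjusted p = 0.000553) for 9 against 1 month and -0.42 (limma adjusted p = 0.0065) for 26 against 9 months. Cox8a, the general form and the most abundant respiratory chain gene, had 1446, 1449.7 and 1468 RPKM at 1 month, 983, 1269 and 1003 RPKM at 9 months and 925, 937 and 876 RPKM at 26 months. It had -0.43 (limma adjusted p = 0.00181) for 9 against 1 month and -0.24 (limma adjusted p = 0.0417) for 26 against 9 months, the last not called without 26-month library C. The Cox8b share of both was 33.6 ± 0.66% at 1 month, 30.9 ± 0.62% at 9 months and 28.2 ± 0.26% at 26 months, and no 2 ages overlapped. Differences in share were not tested. Markers of muscle and brown fat, tissues in which these isoforms are known, were low. Of 11 skeletal muscle genes 9 stayed under 1 RPKM in every library, among them 2 at 0. The 11 genes summed to 3.92 to 4.05, 3.45 to 3.75 and 6.15 to 6.70 RPKM at 1, 9 and 26 months. Acta1 reached 1.3 RPKM, and Mylpf, the highest, averaged 1.78, 2.16 and 3.98 RPKM at these ages. The log2 fold change of Mylpf was 1.11 (limma adjusted p = 1.06e-05) for 26 against 1 month. Of the 8 skeletal muscle genes tested, 2 were called higher and none lower for this comparison. Over all genes tested 52.7% were higher and 21.2% lower. For 9 against 1 month 1 of the 8 was higher and 4 were lower, where 54.7% of all genes were higher and 17.4% lower. Of 8 heart and slow muscle genes 3 were at 0 and all 8 under 1 RPKM, with sums of 0.425 to 1.35 RPKM. The 4 brown fat genes summed to 3.18 to 3.27, 2.62 to 2.80 and 1.45 to 1.62 RPKM at 1, 9 and 26 months. Only Cidea of these was tested, and it was called lower in each comparison. Its log2 fold change was -0.29 for 9 against 1 month, -0.76 for 26 against 9 months and -1.05 for 26 against 1 month. The part of these markers in the isoform levels was not tested.

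**Figure D3:**
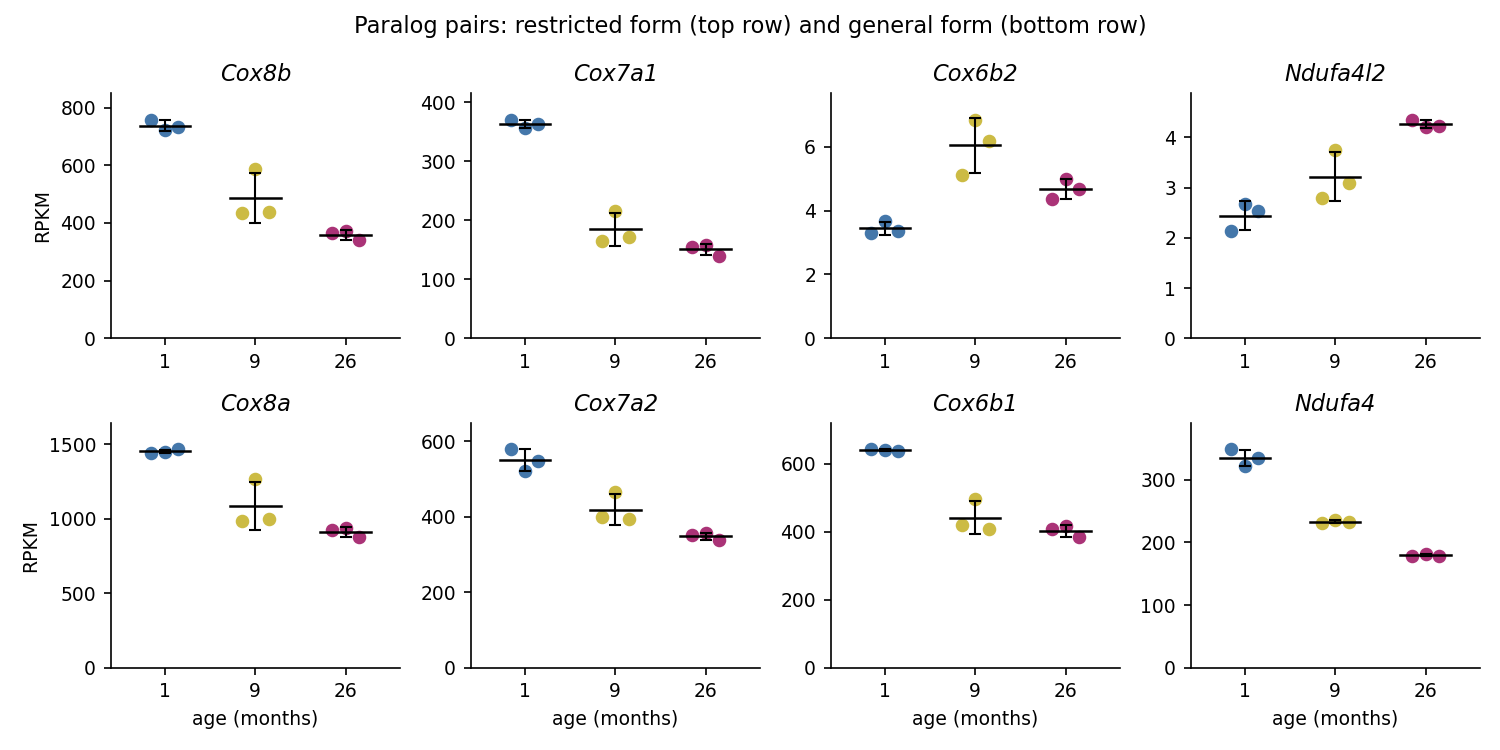
RPKM in each library (points) by age in months, with mean and SD (bars, n = 3 libraries), of Cox8b, Cox7a1, Cox6b2 and Ndufa4l2 in the top row and of their paralogs Cox8a, Cox7a2, Cox6b1 and Ndufa4 in the bottom row; every vertical axis starts at 0. Cox8b and Cox7a1 are highest at 1 month, Ndufa4l2 is highest at 26 months at 4.20 to 4.35 RPKM, and Cox6b2 is highest at 9 months at 5.13 to 6.85 RPKM.

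The paralogs that were higher at later ages were all low in level. Cox6b2, a form known from testis, had 3.3, 3.68 and 3.38 RPKM at 1 month, 5.13, 6.85 and 6.18 RPKM at 9 months and 4.38, 5.0 and 4.68 RPKM at 26 months. Cox6b1, the general form, had 643, 641 and 639 RPKM at 1 month, 419, 498 and 409 RPKM at 9 months and 407, 417 and 384 RPKM at 26 months. The ages of Cox6b2 did not overlap, and its log2 fold change was 0.78 ± 0.1 (SE, limma adjusted p = 9.18e-05) for 9 against 1 month, -0.35 (limma adjusted p = 0.0136) for 26 against 9 months and 0.43 (limma adjusted p = 0.00373) for 26 against 1 month. Cox6b1 was called lower for 9 against 1 month, at -0.54 (limma adjusted p = 0.000111), and the Cox6b2 share of the pair was 0.536, 1.35 and 1.15% on average at 1, 9 and 26 months. Ndufa4l2, induced by low oxygen, had 2.13, 2.68 and 2.53 RPKM at 1 month, 2.8, 3.75 and 3.1 RPKM at 9 months and 4.35, 4.2 and 4.23 RPKM at 26 months. Its ages did not overlap and each was above the one before, with 0.40 ± 0.11 (SE, limma adjusted p = 0.0114) for 26 against 9 months, 0.38 (limma adjusted p = 0.0123) for 9 against 1 month and 0.78 (limma adjusted p = 0.000156) for 26 against 1 month. The value for 9 against 1 month was -0.10 under quantile normalization (limma adjusted p = 0.501). Its share of Ndufa4 and Ndufa4l2 together averaged 0.727, 1.36 and 2.32% at 1, 9 and 26 months.

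Cox4i2, the lung-type form of the regulatory subunit Cox4, had 1.0, 1.5 and 1.2 RPKM at 1 month, 1.8, 1.95 and 0.925 RPKM at 9 months and 1.8, 1.75 and 2.0 RPKM at 26 months. It was called higher for 26 against 1 month, at 0.56 ± 0.24 (SE, limma adjusted p = 0.0621), and overlapped between the other ages. The call was lost in 8 of 26 alternatives, among them leaving out library A or C of 1 month or library A or C of 26 months, and its value ranged from 0.19 to 1.23. Cox4i1, the general form, had 695, 705 and 711 RPKM at 1 month, 464, 557 and 460.0 RPKM at 9 months and 498, 502 and 477 RPKM at 26 months. Its values were -0.52 (limma adjusted p = 0.000132) for 9 against 1 month and 0.00 (limma adjusted p = 0.987) for 26 against 9 months, where the libraries overlapped. Cox6a2, a muscle form, was at or under 0.175 RPKM in every library. Cox6a1, the general form, had 1268, 1315 and 1329 RPKM at 1 month, 782, 1071 and 799 RPKM at 9 months and 816, 828 and 785 RPKM at 26 months. Cox6a2 was called lower for 9 against 1 month (limma adjusted p = 0.0644) although its values of 0, 0.025 and 0.05 RPKM at 9 months and 0.175, 0.125 and 0.025 RPKM at 1 month overlapped. The call was not kept in 8 alternatives. Cox7a2l, which joins complexes III and IV into supercomplexes, had 56.4, 54.5 and 51.7 RPKM at 1 month, 48.5, 45.6 and 46.8 RPKM at 9 months and 50.8, 47.7 and 47.7 RPKM at 26 months, with log2 fold changes of -0.20 (limma adjusted p = 0.00334) for 9 against 1 month and 0.05 (limma adjusted p = 0.371) for 26 against 9 months.

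Complex V, the ATP synthase, had all 15 of its genes among the 95 called lower at 9 months and at 26 months, each against 1 month. The medians were -0.49 and -0.63, and none of these genes overlapped with 1 month. Over all genes tested 17.4% and 21.2% were called lower, and 15.0% and 21.7% lay below all values at 1 month. Between 26 and 9 months 8 of the 15 were lower and none higher, with a median of -0.13. The 8 were Atp5b, Atp5c1, Atp5e, Atp5g2, Atp5g3, Atp5h, Atp5k and Atp5l. Over all genes tested 33.7% were lower and 29.0% higher between these ages. Atp5b, the catalytic beta subunit, had 714, 721 and 714 RPKM at 1 month, 559, 573 and 547 RPKM at 9 months and 508, 504 and 499.9 RPKM at 26 months. The ages were apart, with -0.36 (limma adjusted p = 1.87e-05) for 9 against 1 month and -0.15 (limma adjusted p = 0.0056) for 26 against 9 months. Its partner Atp5a1, the alpha subunit, had 524, 537 and 530.4 RPKM at 1 month, 389, 413 and 386 RPKM at 9 months and 413, 413 and 418 RPKM at 26 months. It was lower at 9 months, at -0.42 (limma adjusted p = 1e-05), but not called between 26 and 9 months, with 0.07 (limma adjusted p = 0.169). By part of the enzyme, 3 of 5 genes of the catalytic F1 head, 2 of 3 of the c ring, 1 of 4 of the peripheral stalk and 4 of 5 of a list of small membrane subunits (of which 2 are outside the 95 genes) were lower at 26 months, against 9 months, and none was higher.

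Among the small membrane subunits, Atp5k, subunit e, had 119, 103 and 109.9 RPKM at 1 month, 70.5, 99.7 and 70.5 RPKM at 9 months and 55.7, 57.8 and 51.9 RPKM at 26 months. Library B of 9 months was near the 1-month libraries, while A and C of 9 months were well below them, and the 26-month libraries were lowest. Its log2 fold change was -0.52 ± 0.12 (SE, limma adjusted p = 0.00564) for 26 against 9 months, -0.48 (limma adjusted p = 0.00669) for 9 against 1 month and -1.01 (limma adjusted p = 6.58e-05) for 26 against 1 month. Atp5l, subunit g and the third in abundance, had 632, 575 and 589 RPKM at 1 month, 366, 438 and 369 RPKM at 9 months and 336, 349.8 and 339.9 RPKM at 26 months. The ages were apart, with -0.62 (limma adjusted p = 4.37e-05) for 9 against 1 month and -0.19 (limma adjusted p = 0.0457) for 26 against 9 months.

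Atp5g1, Atp5g2 and Atp5g3 encode the same mature c subunit of the proton-turning ring and differ in their import sequences. Atp5g3 had 323, 293 and 304 RPKM at 1 month, 172, 203 and 175 RPKM at 9 months and 139.8, 142 and 137 RPKM at 26 months. No ages overlapped, and the log2 fold change was -0.75 ± 0.066 (SE, limma adjusted p = 7.92e-06) for 9 against 1 month, -0.39 ± 0.066 (SE, limma adjusted p = 0.000826) for 26 against 9 months and -1.13 ± 0.066 (SE, limma adjusted p = 5.17e-07) for 26 against 1 month. Atp5g2 had 72.4, 68.0 and 67.3 RPKM at 1 month, 46.8, 54.2 and 47.3 RPKM at 9 months and 43.2, 41.7 and 39.5 RPKM at 26 months. This gave -0.49 (limma adjusted p = 0.000102) for 9 against 1 month and -0.25 (limma adjusted p = 0.0075) for 26 against 9 months. Atp5g1 had 69.9, 77.8 and 78.7 RPKM at 1 month, 44.5, 53.0 and 44.1 RPKM at 9 months and 48.5, 47.4 and 46.6 RPKM at 26 months. It fell by 9 months, at -0.68 (limma adjusted p = 3.34e-05), and its 26- and 9-month libraries overlapped. Of the summed RPKM of these 3 genes, Atp5g3 made up 67.9 ± 1.4% at 1 month, 65.5 ± 0.19% at 9 months and 61.1 ± 0.62% at 26 months, and Atp5g1 16.7 ± 1.5%, 16.9 ± 0.26% and 20.8 ± 0.26% (mean ± SD of 3 libraries). The Atp5g3 share at 26 months, 60.4 to 61.5%, lay below every younger library.

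Assembly factors were called lower in a smaller share than subunits. For 9 against 1 month 7 of 10 (70.0%) were called lower, with a median of -0.21, beside 78 of 81 subunits tested, with a median of -0.49. Ndufaf2, Ndufaf4 and Uqcc1 were not called. Over all genes tested 17.4% were lower and 54.7% higher for this comparison, with a median of 0.27. For 26 against 1 month 6 of 10 assembly factors (60.0%) were lower, with a median of -0.33. Of 81 subunits 75 were lower and 4 higher, with a median of -0.53. Over all genes tested 21.2% were lower and 52.7% higher for this comparison, with a median of 0.24. At 26 months, against 9 months, 2 assembly factors were higher and 2 lower, beside 16 and 28 subunits, where 29.0% of all genes were higher and 33.7% lower. The difference between the groups was not tested.

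Ndufaf2, a paralog of the subunit Ndufa12 that holds its place during assembly, had 16.1, 14.7 and 15.3 RPKM at 1 month, 16.1, 15.8 and 16.4 RPKM at 9 months and 10.5, 10.7 and 11.6 RPKM at 26 months. Only the 26-month libraries stood apart. This gave -0.56 ± 0.051 (SE, limma adjusted p = 1.73e-05) for 26 against 9 months, kept in every alternative run. It was 0.07 (limma adjusted p = 0.267) for 9 against 1 month, which was not called. Ndufa12 itself had 119, 121 and 119 RPKM at 26 months, against 100.0, 104 and 99.9 RPKM at 9 months, with a log2 fold change of 0.24 ± 0.041 (SE, limma adjusted p = 0.000884). It was named here after its values were seen. Ndufaf6, needed early in complex I assembly, had 5.73, 5.15 and 5.15 RPKM at 1 month, 3.98, 3.78 and 3.15 RPKM at 9 months and 5.35, 5.03 and 5.45 RPKM at 26 months. The 9-month libraries were lowest, with -0.55 ± 0.086 (SE, limma adjusted p = 0.000353) for 9 against 1 month and 0.53 ± 0.086 (SE, limma adjusted p = 0.000605) for 26 against 9 months, while 26 and 1 month overlapped. Ndufaf5 and Ndufaf7, enzymes that modify complex I subunits, had log2 fold changes of -0.31 (limma adjusted p = 0.00161) and 0.11 (limma adjusted p = 0.044) for 26 against 9 months. Uqcc1, Uqcc2 and Uqcc3 support the making of cytochrome b and were not called between these ages. Uqcc2, the most abundant factor, had 117, 120.0 and 127 RPKM at 1 month, 89.9, 112 and 90.1 RPKM at 9 months and 90.4, 88.1 and 87.5 RPKM at 26 months. It was lower at 9 months, against 1 month, at -0.32 (limma adjusted p = 0.00531).

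Atp5s and Atp5sl, which carry the name of ATP synthase only, were not called for 9 against 1 month, with values of 0.13 and -0.03 (limma adjusted p = 0.453 and 0.543). Atp5sl was lower for 26 against 9 months, at -0.25 (limma adjusted p = 0.00151).

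The complexes other than II also need subunits from mitochondrial DNA, whose 13 protein genes were measured in the same libraries. These genes did not move in step with the nuclear ones in every library. Between 26 and 9 months 6 of the 13 were called higher and none lower, with a median of 0.35. Over all genes tested 29.0% were higher and 33.7% lower. Between 9 and 1 months 7 were lower, with a median of -0.51, where 17.4% of all genes were lower. Between 26 and 1 months 1 was higher and 5 lower, with a median of -0.24, where 52.7% of all genes were higher and 21.2% lower. In complex IV all 3 mitochondrially encoded subunits were lower at 9 months, against 1 month, and all 3 were higher at 26 months, against 9 months. Of its 16 nuclear subunits tested, 8 were lower and none higher at 26 months, against 9 months.

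mt-Co1, the catalytic subunit of complex IV, had 6251, 5433 and 5597 RPKM at 1 month, 3250.3, 2408 and 3280.3 RPKM at 9 months and 4333, 4430.5 and 4583 RPKM at 26 months. The ages did not overlap, with 9 months lowest, and the log2 fold change was 0.59 (limma adjusted p = 0.00176) for 26 against 9 months and -0.96 (limma adjusted p = 5.69e-05) for 9 against 1 month. mt-Cytb, cytochrome b of complex III, had 4179, 3259 and 3451 RPKM at 1 month, 2365, 1644 and 2425 RPKM at 9 months and 2995, 3097 and 3048 RPKM at 26 months. It had 0.53 (limma adjusted p = 0.0119) and -0.77 (limma adjusted p = 0.00112) for the same comparisons. Library B of 9 months was the lowest of all 9 for both genes. As a median over the mitochondrially encoded genes of complex IV, that library stood at -1.26 on the log2 scale against the 1-month mean, and libraries A and C of 9 months at -0.82 and -0.81. For the nuclear genes of complex IV the same library stood at -0.34, above A and C at -0.61 and -0.57.

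**Figure D4:**
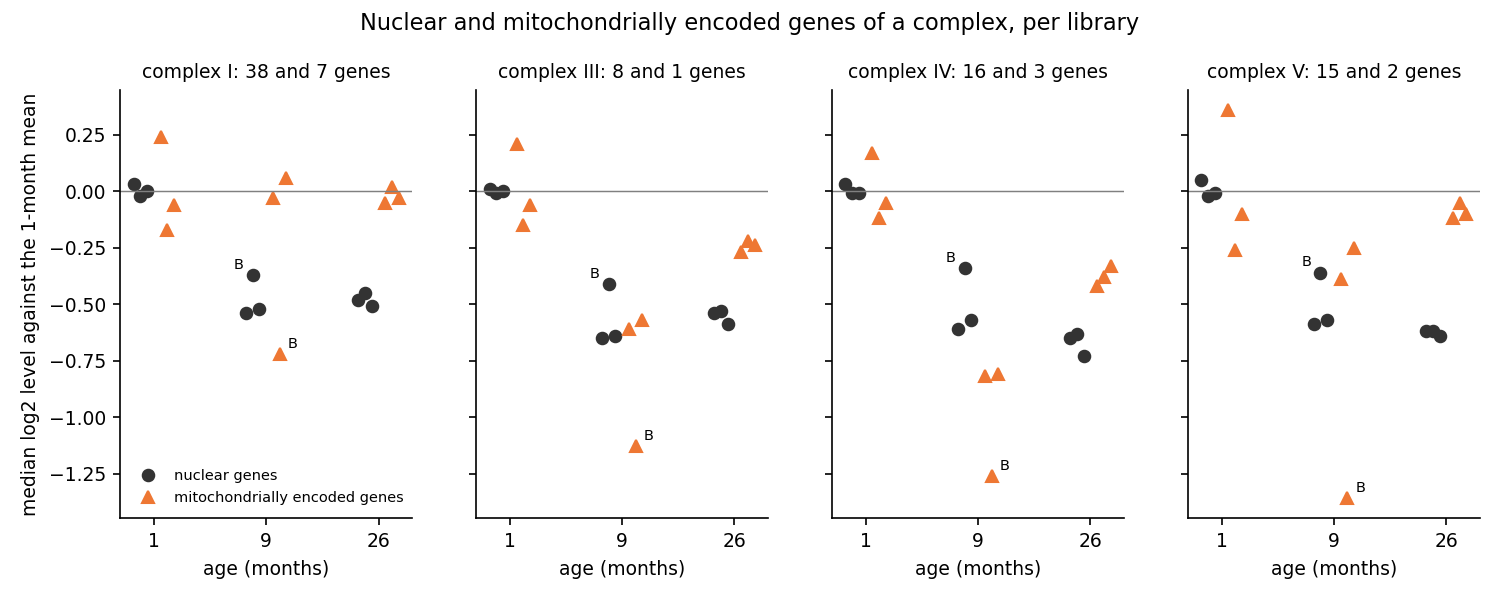
Median log2 level of a complex in each library against the mean of the 1-month libraries (vertical axis), by age in months, for the nuclear genes (circles) and the mitochondrially encoded genes (triangles) of complexes I, III, IV and V; each title gives the number of nuclear and of mitochondrially encoded genes, and B marks library B of 9 months. In complex IV the nuclear medians at 26 months lie between -0.73 and -0.63 and the mitochondrially encoded ones between -0.42 and -0.33.

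Other mitochondrial gene lists, chosen with earlier results of these data known, were counted in the same way, and their differences from the respiratory chain genes were not tested. Of 77 mitochondrial ribosomal protein genes 53 were called lower and 6 higher for 9 against 1 month, with a median of -0.26, and of 14 TCA cycle enzymes 9 were lower and 2 higher, with a median of -0.22. Of 37 assembly factors with other names, 20 were lower and 8 higher, with a median of -0.12, beside -0.21 for the 10 assembly factors among the respiratory chain genes. Of 20 genes for electron carriers and the exchange of phosphate and nucleotides 11 were lower and 4 higher, with a median of -0.23. Over all genes tested 17.4% were lower and 54.7% higher for this comparison, with a median of 0.27. Between 26 and 9 months, 21 mitochondrial ribosomal protein genes were higher and 25 lower. The counts were 4 and 1 for TCA cycle enzymes, 8 and 15 for the other assembly factors and 7 and 6 for carriers and exchange. Over all genes tested 29.0% were higher and 33.7% lower between these ages.

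Genes for regulators of mitochondrial biogenesis were mostly higher at 9 months, like most genes on this scale. Of 16 such genes 13 were called higher and none lower for 9 against 1 month, with a median of 0.38, beside 54.7% called higher and a median of 0.27 over all genes, and for 26 against 9 months 5 were higher and 6 lower. Ppargc1a, the coactivator PGC-1alpha, had 12.7, 12.9 and 12.8 RPKM at 1 month, 13.8, 12.0 and 13.1 RPKM at 9 months and 22.1, 22.0 and 22.2 RPKM at 26 months. Only 26 months stood apart, with 0.77 (limma adjusted p = 2.14e-06) for 26 against 9 months. Of its partners that bind the ERR motif, the receptors Esrra and Esrrb were lower at 26 months, against 9 months, and Esrrg was higher. Esrra had 17.4, 20.6 and 20.4 RPKM at 1 month, 23.1, 24.5 and 23.5 RPKM at 9 months and 12.3, 12.3 and 12.3 RPKM at 26 months. This gave -0.94 (limma adjusted p = 2.6e-06) for 26 against 9 months. Esrrb, also a marker of marginal cells, had 20.0, 20.5 and 20.5 RPKM at 1 month, 39.1, 39.6 and 38.0 RPKM at 9 months and 13.6, 13.8 and 13.8 RPKM at 26 months. Its values were 0.93 (limma adjusted p = 5.33e-08) for 9 against 1 month and -1.50 (limma adjusted p = 6.16e-09) for 26 against 9 months. Esrrg had 1.18, 1.23 and 1.3 RPKM at 1 month, 2.33, 1.75 and 1.93 RPKM at 9 months and 2.6, 2.75 and 2.65 RPKM at 26 months. It had 0.65 (limma adjusted p = 0.000229) and 0.41 (limma adjusted p = 0.00514) for the same comparisons. Nrf1, which binds the promoters of many respiratory chain genes, had 2.35, 2.58 and 2.5 RPKM at 1 month, 2.95, 3.23 and 3.1 RPKM at 9 months and 3.7, 3.68 and 3.85 RPKM at 26 months. Each age was above the one before, with 0.31 (limma adjusted p = 0.000954) and 0.27 (limma adjusted p = 0.003) for the same comparisons.

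Because these factors are known to act through short promoter motifs, the promoters of the respiratory chain genes were searched in the RefSeq table for GRCm38.p6. The table gives 250 bases before and 50 after each start and matched 76 of the 95 genes. Exact matches on either strand were counted for 4 motifs: GCGCATGC for NRF1, CCGGAAG for the ETS factor GABPA, AAGGTCA for ERR and AAGATGGC for YY1. NRF1 matched 12 genes (15.8%), beside 3.05% of all 27025 genes in the table and 5.44% of those tested here. ETS matched 17 (22.4%, beside 9.93 and 18.1%), ERR 9 (11.8%, beside 5.38 and 4.14%) and YY1 10 (13.2%, beside 3.19 and 4.82%), and 38 of the 76 genes had none of the 4. A match is a description of the letters and not a site in use.

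The 12 windows with the NRF1 motif are shown because this motif had the share farthest from that of all promoters. Each is 30 bases, 5′ to 3′ along the gene, with the match in capitals, and GCATGCGC marks a match on the opposite strand. In 7 of the genes the motif overlaps a match on the opposite strand, and then the first is in capitals.

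Atp5g2 (chr15:102671071-102671100, minus strand): tggctccggccGCGCATGCgcagagccttc
Atp5k (chr5:108434431-108434460, minus strand): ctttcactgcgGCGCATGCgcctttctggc
Atp5l (chr9:44920963-44920992, minus strand): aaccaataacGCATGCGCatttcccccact
Cox6a1 (chr5:115349102-115349131, minus strand): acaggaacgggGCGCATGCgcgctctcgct
Ndufa11 (chr17:56717691-56717720, plus strand): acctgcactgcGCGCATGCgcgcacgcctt
Ndufa6 (chr15:82354356-82354385, minus strand): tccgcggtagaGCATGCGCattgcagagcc
Ndufa8 (chr2:36049328-36049357, minus strand): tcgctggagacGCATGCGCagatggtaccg
Ndufaf4 (chr4:24897959-24897988, plus strand): cccagatgtctGCGCATGCgcctgtgcgga
Ndufaf5 (chr2:140170651-140170680, plus strand): tagtcccgttgGCGCATGCgcctaatagaa
Sdhb (chr4:140961206-140961235, plus strand): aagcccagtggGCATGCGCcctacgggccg
Uqcr11 (chr10:80406807-80406836, minus strand): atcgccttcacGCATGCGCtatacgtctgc
Uqcrc1 (chr9:108936667-108936696, plus strand): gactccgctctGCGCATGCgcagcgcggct

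The 9 windows with the ERR motif are shown because the receptors for it were measured above, with TGACCTT marking a match on the opposite strand. Atp5k and Atp5l have both motifs.

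Atp5e (chr2:174464059-174464088, minus strand): ctactcaggccTGACCTTcctgctgccggg
Atp5g3 (chr2:73911360-73911389, minus strand): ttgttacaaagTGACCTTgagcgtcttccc
Atp5k (chr5:108434358-108434387, minus strand): cttccggcgcgAAGGTCAcggacaaaatgg
Atp5l (chr9:44920737-44920766, minus strand): gaggggcagccTGACCTTggaaatggggaa
Ndufb2 (chr6:39592373-39592402, plus strand): ggagcagcagtAAGGTCAgccaagagcacc
Ndufb4 (chr16:37654405-37654434, minus strand): tcctgagcctgAAGGTCAgactcgagaggg
Ndufs5 (chr4:123718396-123718425, minus strand): tttctcgagtgTGACCTTgctcaagtagca
Sdhd (chr9:50603800-50603829, minus strand): tttccgggttgtagagTGACCTTgagccct
Uqcc3 (chr19:8881052-8881081, minus strand): gaaattgaaccAAGGTCAtttgggagagct

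At 9 months, against 1 month, 11 of the 12 genes with NRF1 were called lower, with a median of -0.51, as were 17 of 17 with ETS (-0.46), 9 of 9 with ERR (-0.48) and 10 of 10 with YY1 (-0.52). Of the genes with a promoter in the table and none of the 4 motifs, 34 of 37 tested were lower, with a median of -0.47. Over all genes tested 17.4% were lower. Since nearly all members were lower, these counts leave little room for a difference, and none was tested. The exception among the NRF1 genes was Ndufaf4, an assembly factor, at 0.02 (limma adjusted p = 0.916). At 26 months, against 9 months, when Esrra and Esrrb were lower and Esrrg higher, 4 of the 9 ERR genes were lower and 1 higher, with a median of -0.13, beside 33.7% of all genes lower and 29.0% higher. Of the 37 without a motif 15 were lower and 6 higher, with a median of -0.03. The muscle-type isoforms Cox7a1 and Cox8b had none of the 4 motifs in their window.

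Respiratory chain genes are short, and in these data the difference between ages depended on length. Length here is that of all annotated exons of a gene together, which can exceed the length of the transcript measured. Genes of a quintile therefore need not have transcripts of equal length. The summed exon length of the 93 tested genes had a median of 1675 bases, against 3943 bases for all genes tested with a length in GENCODE M21, and 58 of the 93 were in the shortest quintile, under 1972 bases. Over all genes the median log2 fold change for 9 against 1 month was -0.09 in the shortest quintile and 0.08, 0.26, 0.42 and 0.62 in the quintiles that follow. The respiratory chain genes were lower in each quintile, with medians of -0.51, -0.45, -0.36, -0.48 and -0.20, the last from 1 gene. Set against all genes of the same quintile of exon length, those of the shortest quintile thus had -0.51 beside -0.09, and for 26 against 1 month -0.60 beside -0.10. With the length trend of each library removed, 87 genes were lower and 2 higher for 9 against 1 month, and the distance of their median from that of all genes was -0.47 where it was -0.74 before.

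Between 26 and 9 months the length trend over all genes was flat, from -0.02 in the shortest quintile to -0.08 in the longest. The medians of the respiratory chain genes were -0.11, 0.06, 0.06, -0.08 and 0.24 by quintile, the last from 1 gene, without a steady trend. The 31 genes called lower had a median exon length of 1381 bases and the 18 called higher 2170 bases, and the medians of their mean levels were 146 and 137 RPKM. These differences were not tested.

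**Figure D5:**
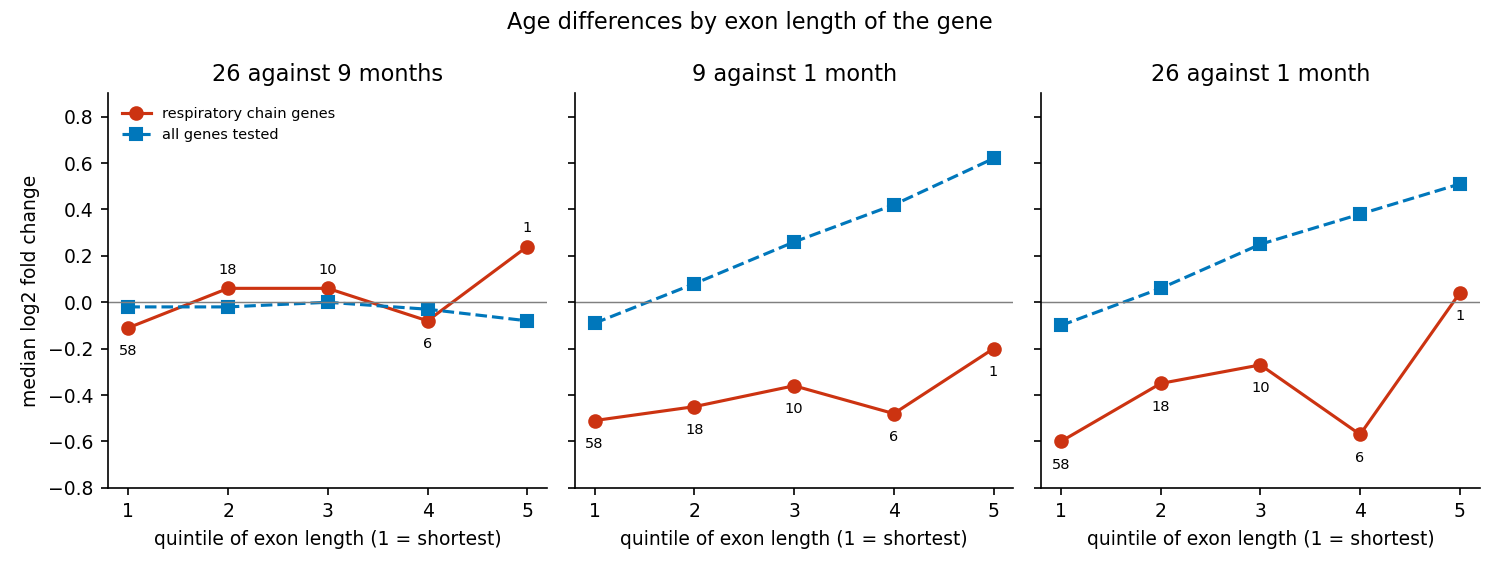
Median log2 fold change of RPKM + 0.1 (vertical axis) by quintile of exon length (1 is the shortest) for the respiratory chain genes (circles, with their number) and all genes tested (squares), in a panel for each of the 3 pairs of ages. The respiratory chain genes lie below all genes in each quintile for 9 against 1 month and 26 against 1 month.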

How the data were processed

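Total RNA was amplified by SMARTer chemistry, tagmented with Nextera, and read on a HiSeq in 4 runs per library. The authors mapped paired reads to GRCm38 (mm10) in CLC Genomics Workbench, whose version is not given in the sources used here, and deposited 1 RPKM value per gene and library. The study's methods give an approximate read number per sample, but the RPKM table holds no counts or mapped totals per library, so counting error has no interval here. The deposited table also holds the authors' fold changes and p-values between ages, which were not used, and its notes sheet writes 28 months beside columns named for 26 months.

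The test was limma 3.58.1 (R 4.3.3) on log2(RPKM + 0.1), with the 3 ages in a single model, a mean-variance trend, at least 0.1 RPKM in at least 3 libraries and Benjamini-Hochberg adjustment over 15806 genes. Summaries and plots used Python 3.11.15, pandas 2.3.3, numpy 2.4.6 and matplotlib 3.10.9. Exon lengths are from GENCODE M21, over all annotated exons of a gene, and promoters are from RefSeq. The fit was also run on simulated data with independent libraries. Several libraries here are near-identical, so that run cannot show the error rate in these data.

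Genes were named by rule: up to 6 members called in each direction with the largest changes per comparison, the 3 highest and 3 lowest of each complex, tissue isoforms, and all subunits of complexes II and III, the changes being in genes of at least 1 RPKM without overlap; further members were named after their values were seen. The members and gene lists were chosen with earlier results of these data known. The measure of near-identical libraries (a spread of the ratio of both, from its median absolute deviation, under 2%) was chosen after seeing the data. Averaged by it, the 26-month libraries became 1 sample. The alternatives tried were other pseudocounts and filters, scalings, weights and covariates, averaged libraries and leaving out each library.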

Additional observations from a re-analysis of the deposited data

How the results depend on the processing

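Of 85 calls on named genes, 54 were kept in all 26 alternatives, 4 of 24 for 26 against 9 months (Cox7b, Ndufa4, Ndufaf2 and Ndufaf6), 27 of 31 for 9 against 1 month and 23 of 30 for 26 against 1 month, and 6 changed sign in at least 1. The lower calls against 1 month varied least. The members' median, less that of all genes, ranged over the settings from -0.84 to -0.33 for 9 against 1 month, from -0.79 to -0.41 for 26 against 1 month and from -0.09 to 0.12 for 26 against 9 months. Under quantile normalization the median was -0.33 for 9 against 1 month and -0.41 for 26 against 1 month, where 2 genes were higher and 2 lower by the fold threshold, Ndufa4l2 had -0.10 (limma adjusted p = 0.501) and Sdha 0.17 (called) for 9 against 1 month. Under median of ratios scaling the medians were -0.78 for both ages against 1 month, 1 gene was higher at 9 and 1 at 26 months, 8 and 17 were lower by the fold threshold, and Sdha had -0.12 (0.0241) for 26 against 1 month. With the length trend removed Sdha had -0.15 (0.00539) there, and 3 genes were lower by the fold threshold at 9 months.

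With array weights 37 genes were higher for 26 against 9 months (median 0.01), 6 for 9 against 1 month, with 1 lower by the fold threshold, and 9 for 26 against 1 month. With Y-linked expression as a covariate 34 were higher for 26 against 9 months (median 0.05) and Cox8a had 0.04 (0.611), while for 26 against 1 month 2 were higher and 2 lower by the fold threshold, the median was -0.41, Sdhb had 0.05 (0.330) and Uqcr11 0.04 (0.498). A pseudocount of 0.01 gave 1 gene higher for 26 against 9 months and 1 lower for 9 against 1 month by the fold threshold. With near-identical libraries averaged, 1 gene was higher and 3 lower for 26 against 9 months, and 2 were higher for 26 against 1 month. With these averaged and the length trend removed, an alternative chosen after seeing the data, 2 were higher and 8 lower for 26 against 9 months, 2 were lower by the fold threshold for 9 against 1 month, and Sdha had -0.14 (0.390) for 26 against 1 month. The cause of these changes was not tested.

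Leaving out a library gave 14 to 31 genes higher and a median of -0.10 to 0.00 for 26 against 9 months, and 2 to 4 higher, a median of -0.54 to -0.45 and 0 to 1 lower by the fold threshold for 9 against 1 month. Library B of 9 months gave the values 31, 0.00, 4 and -0.54 when left out. Deviations from the age means correlated at -0.0512 to 0.228 between same-letter libraries and at -0.309 to 0.212 between libraries of different letters. With 3 libraries per age, several of them near-identical, these values cannot decide whether the letters A, B and C pair the libraries. With the replicate block 21 were higher and 31 lower for 26 against 9 months, 2 and 85 for 9 against 1 month and 4 and 82 for 26 against 1 month. With 3 libraries per age, of which several are near-identical, small differences cannot be told from differences between pools.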

Other observations

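Genes that link the respiratory chain to the rest of the cell were examined on the same scale, older over younger, and were picked here after their values were seen. Slc25a5, an exchanger of ADP and ATP across the inner membrane, had 556, 575 and 561 RPKM at 1 month, 362, 349.9 and 355 RPKM at 9 months and 586, 585 and 598 RPKM at 26 months. Its 9-month libraries stood below all others, and the log2 fold change was 0.73 (limma adjusted p = 3.57e-07) for 26 against 9 months and -0.67 (limma adjusted p = 3.37e-07) for 9 against 1 month. mt-Nd3, a mitochondrially encoded subunit of complex I, had 895, 593 and 662 RPKM at 1 month, 580.1, 234 and 645 RPKM at 9 months and 276, 289 and 293 RPKM at 26 months, with -1.30 (limma adjusted p = 0.00588) for 26 against 1 month.

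Among regulators of mitochondrial genes, Tfam, which packages and transcribes mitochondrial DNA, had 5.53, 5.15 and 5.1 RPKM at 1 month, 6.25, 5.05 and 6.43 RPKM at 9 months and 4.38, 4.35 and 4.35 RPKM at 26 months, with -0.42 (limma adjusted p = 0.00212) for 26 against 9 months. Tfb1m, a methyltransferase of the mitochondrial ribosome, had 2.4, 2.58 and 2.53 RPKM at 1 month, 3.98, 3.43 and 3.75 RPKM at 9 months and 1.53, 1.08 and 1.48 RPKM at 26 months, with -1.40 (limma adjusted p = 9.55e-06) for the same comparison. Pprc1, a coactivator related to PGC-1alpha, had 0.95, 1.08 and 0.975 RPKM at 1 month, 2.65, 2.88 and 2.53 RPKM at 9 months and 3.48, 3.48 and 3.3 RPKM at 26 months, with 1.34 (limma adjusted p = 2.77e-07) for 9 against 1 month, where the median over all genes was 0.27.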
